A study of Arabidopsis thaliana with 25 samples.

Results

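Cotyledon transcripts of dark-grown Arabidopsis thaliana seedlings were compared before and after the first 6 h of light. The 10 libraries compared were chosen by their labels from the 25 of the series: 5 labelled D and 5 labelled 6h, paired by replicate number. All seedlings were wild type (WT) and had spent 5 days on MS medium in darkness. The 6h seedlings then had 6 h of continuous light, and the D seedlings had none. After acetone fixation the seed leaves were dissected and ground, and each library holds fly as well as plant transcripts because Drosophila cells went into the extraction. No dark group was kept for the same further time, so light cannot be told apart from age or time of day. The labels call the replicates biological without saying what was separate, so a p-value here reflects the spread among these samples, which may be technical.

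A seedling that germinates in darkness keeps its cotyledons pale, small and folded and lives on seed reserves. Its plastids store protochlorophyllide bound to a light-requiring reductase. Light is perceived by phytochromes, cryptochromes and the UV-B receptor UVR8. They restrain the COP1 and SPA ubiquitin ligase, which in darkness removes factors such as HY5, and they act against the phytochrome-interacting factors (PIFs), which hold back greening. Chlorophyll and antenna proteins are then made, flavonoids accumulate as a light screen, and the cotyledons open, divide and grow.

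Several motifs are known for light, sugar and clock control of such genes: the G-box CACGTG, bound by bZIP and bHLH factors such as HY5 and the PIFs, the I-box GATAAG of light- and sugar-regulated genes, the evening element AAAATATCT of the clock, and site II TGGGCC of ribosomal protein genes. The 300 bases before the annotated gene start were read from the TAIR10.1 genome with the RefSeq annotation, and both strands were searched. The sequences are shown for 6 genes whose values are described below, 4 that rose and 2 that fell, each 5′ to 3′ on the gene's own strand, with the matches in capitals. None of these windows overlaps another annotated gene. TT4 (AT5G13930) codes for chalcone synthase, the entry to flavonoids, and its window is chr5:4488176-4488475 on the plus strand. DFR (AT5G42800), for dihydroflavonol reductase of the anthocyanin branch, has chr5:17166033-17166332 on the minus strand. UF3GT (AT5G54060), for an anthocyanin glycosyltransferase, has chr5:21938397-21938696 on the minus strand. ELIP1 (AT3G22840), an early light-induced protein of the thylakoid, has chr3:8085670-8085969 on the minus strand. PORA (AT5G54190), the protochlorophyllide reductase of dark-grown tissue, has chr5:21992815-21993114 on the minus strand. BCAT-2 (AT1G10070), a branched-chain amino acid aminotransferase, has chr1:3287787-3288086 on the plus strand.
TT4: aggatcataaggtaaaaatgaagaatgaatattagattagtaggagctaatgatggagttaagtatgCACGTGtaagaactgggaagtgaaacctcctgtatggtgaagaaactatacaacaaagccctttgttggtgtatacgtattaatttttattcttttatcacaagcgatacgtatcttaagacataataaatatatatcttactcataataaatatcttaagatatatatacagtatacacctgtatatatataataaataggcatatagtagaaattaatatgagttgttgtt
DFR: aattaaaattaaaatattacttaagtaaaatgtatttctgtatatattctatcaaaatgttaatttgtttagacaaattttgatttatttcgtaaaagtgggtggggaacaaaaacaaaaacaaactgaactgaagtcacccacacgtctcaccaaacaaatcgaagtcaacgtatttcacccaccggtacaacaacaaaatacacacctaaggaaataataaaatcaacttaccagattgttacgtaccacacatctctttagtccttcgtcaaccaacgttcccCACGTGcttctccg
UF3GT: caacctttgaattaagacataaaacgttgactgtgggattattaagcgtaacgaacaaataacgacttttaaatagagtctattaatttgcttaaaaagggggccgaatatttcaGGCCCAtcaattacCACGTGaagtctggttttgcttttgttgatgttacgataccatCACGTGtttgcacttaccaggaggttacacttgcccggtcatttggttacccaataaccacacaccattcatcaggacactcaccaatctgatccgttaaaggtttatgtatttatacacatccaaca
ELIP1: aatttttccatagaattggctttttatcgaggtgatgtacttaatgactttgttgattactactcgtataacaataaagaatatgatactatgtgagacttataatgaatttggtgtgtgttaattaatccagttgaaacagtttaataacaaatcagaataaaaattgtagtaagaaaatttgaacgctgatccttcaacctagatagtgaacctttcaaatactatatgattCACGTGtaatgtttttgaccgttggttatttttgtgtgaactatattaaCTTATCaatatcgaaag
PORA: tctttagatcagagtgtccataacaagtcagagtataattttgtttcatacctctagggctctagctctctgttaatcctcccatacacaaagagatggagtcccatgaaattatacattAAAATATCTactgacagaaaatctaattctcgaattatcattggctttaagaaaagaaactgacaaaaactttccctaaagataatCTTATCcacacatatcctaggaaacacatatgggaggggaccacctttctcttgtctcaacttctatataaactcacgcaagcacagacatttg
BCAT-2: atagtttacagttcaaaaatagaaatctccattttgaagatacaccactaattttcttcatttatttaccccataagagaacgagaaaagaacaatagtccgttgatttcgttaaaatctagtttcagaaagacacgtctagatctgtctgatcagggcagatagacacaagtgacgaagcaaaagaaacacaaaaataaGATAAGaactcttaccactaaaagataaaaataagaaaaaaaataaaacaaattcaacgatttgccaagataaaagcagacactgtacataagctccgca
The capitals are a G-box in TT4, DFR and ELIP1, a site II on the opposite strand and a pair of G-boxes in UF3GT, an evening element and an I-box on the opposite strand in PORA, and an I-box in ELIP1 (opposite strand) and BCAT-2. A match is a description of letters and not a binding site. Of the 17700 tested protein-coding genes, 8.22% have a G-box in this window, 14.8% an I-box, 2.94% an evening element and 18.8% a site II. Over the promoters of all 37878 annotated genes the shares are 5.98%, 14.9%, 2.51% and 12.3%.

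The libraries held 18042043 to 24016282 counts. The mean share of fly genes was 2.2% of counts in dark and 1.13% at 6 h, and the nuclear plant counts per fly count measure how much plant RNA was extracted per fly RNA. That ratio was 23.1, 32.4, 58.5, 74.7 and 66.7 in dark replicates 1 to 5 and 98.3, 94.5, 44.7, 127 and 104 at 6 h. It was higher at 6 h in 4 of 5 pairs, by 4.26-fold and 2.92-fold in replicates 1 and 2 and by 1.71-fold and 1.55-fold in replicates 4 and 5, and in replicate 3 it was 0.764 of its dark partner. The mean log2 difference was 0.93 ± 0.42 (SE, 5 pairs), and the two-sided exact sign-flip test gave p = 0.125, where 0.063 is the smallest p that 5 pairs allow. In whole cotyledons fewer cells of a type and less RNA per cell cannot be told apart.

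Plastid-encoded transcripts took 6.40% ± 2.80 (SD, n = 5) of Arabidopsis counts in dark and 5.02% ± 2.83 at 6 h, and the pairs moved in both directions (log2 difference -0.43 ± 0.27 SE, exact sign-flip p = 0.25). Mitochondrial transcripts took 0.0903% ± 0.0619 and 0.0702% ± 0.0321 (-0.27 ± 0.29 SE, exact sign-flip p = 0.438). Of 104 plastid-encoded entries tested, 10 were called higher and 2 lower per fly RNA, and 6 higher and 10 lower within plant RNA, the 2 scalings described next. Of 45 mitochondrial entries, 3 were called higher per fly RNA and 3 lower within plant RNA. Of all 19281 entries tested, 22.1% were called higher and 4.37% lower per fly RNA, and 30.5% higher and 30.8% lower within plant RNA. The shares of organelle entries called were smaller than these.

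**Figure D1:**
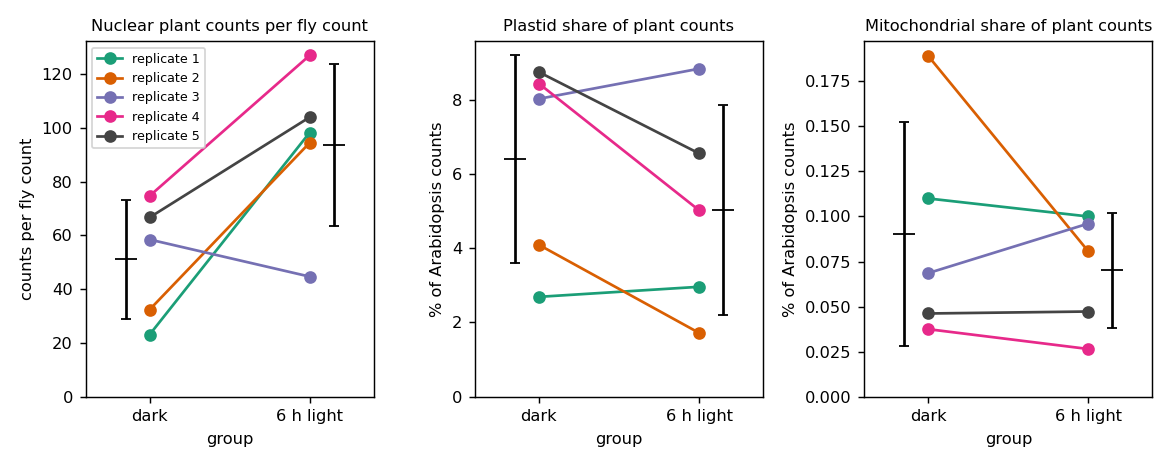
Nuclear plant counts per fly count, plastid share and mitochondrial share of Arabidopsis counts (linear axes from 0) in each library, with lines joining libraries of the same replicate number and black bars giving the mean and SD of 5 libraries. The ratio to fly counts is higher at 6 h in 4 of 5 pairs and lower in replicate 3, and the organelle shares move in both directions.

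Each gene was therefore tested on 2 scales in 5 pairs. Per fly RNA, libraries were scaled by their summed Drosophila counts, so a gene is compared with the added fly RNA. Within plant RNA, libraries were scaled by TMM over Arabidopsis genes, so a gene is compared with the other plant transcripts. Levels are given as CPM, which means counts scaled to a fixed library total within plant RNA unless stated, and a log2 fold change is 6 h over dark with its SE. A gene was called at an edgeR quasi-likelihood adjusted p under 0.05, and "rose" and "fell" are used for called genes only. Of 19281 genes tested, 4255 rose (22.1%) and 842 fell (4.37%) per fly RNA. Within plant RNA 5884 rose (30.5%) and 5936 fell (30.8%).

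The typical gene had a log2 fold change of 0.64 per fly RNA and of -0.01 within plant RNA. TMM over these genes places the typical gene near 0, so the -0.01 and the near-equal shares within plant RNA follow largely from the scaling. In either direction 26.4% of genes were called per fly RNA and 61.3% within plant RNA. Under both scalings 4117 genes rose (21.4%) and 829 fell (4.30%), and 0 genes were called in opposite directions. Both scalings use the same counts, so a call under both is not separate evidence. A further 5107 genes (26.5%) fell within plant RNA without a call per fly RNA, and 1767 (9.16%) rose in the same manner, while 151 (0.783%) were called per fly RNA alone and 7310 (37.9%) on neither scale. The median SE was 0.57 per fly RNA and 0.18 within plant RNA. Of the 19281 genes tested, 2731 had no overlap between the dark and light libraries per fly RNA and 8022 within plant RNA. Each library's fly sum enters the values of all its genes, so their errors per fly RNA are not independent of each other. In the fit per fly RNA the variance of single genes was shrunk fully to a common trend. The prior degrees of freedom were infinite there and 3.93 within plant RNA. A fit of replicates 1 and 2 alone called 12406 genes higher and 464 lower per fly RNA (median 1.57), and one of replicates 3 to 5 called 2441 and 2188 (median 0.01). Leaving out one pair gave 2134 to 8251 genes higher per fly RNA, the largest count without replicate 3, and 5071 to 5918 within plant RNA. Of the genes named here 24 lost their call per fly RNA without at least 1 of the pairs, among them PHYB, COP1, PIF3, GLK2, GUN1, CAT3, PORB and RBCS3B (edgeR adjusted p up to 0.276), and 4 lost their call within plant RNA, with adjusted p up to 0.124. Members of a list named beyond its 4 largest changes were chosen after their values were seen.

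**Figure D2:**
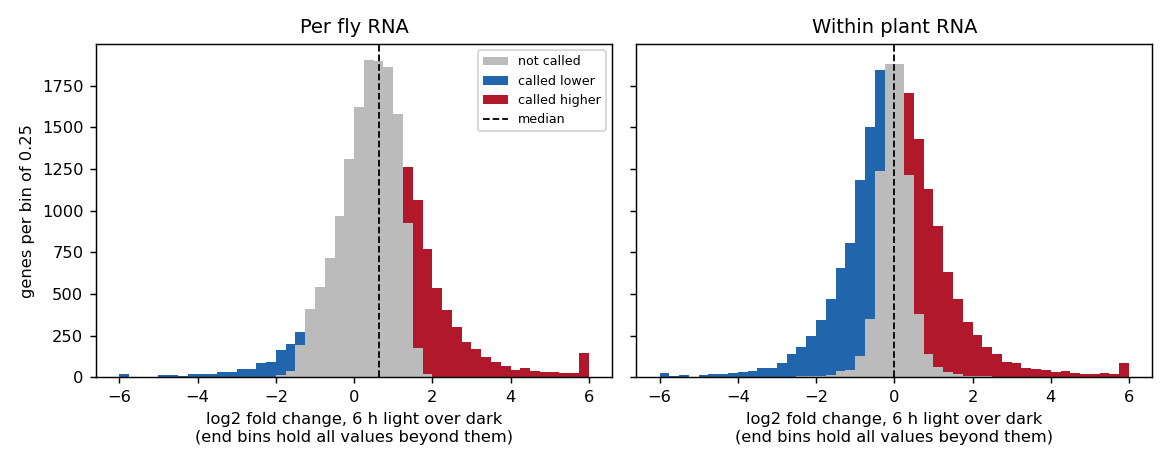
Number of genes per 0.25-wide bin of log2 fold change, 6 h over dark, per fly RNA and within plant RNA, with genes called higher or lower stacked in colour on those not called and the end bins holding all more extreme values. The median (dashed) lies at 0.64 per fly RNA and at -0.01 within plant RNA, where the scaling itself places it near 0.

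The labelled tissue was checked against markers. The 7 root markers summed to at most 0.361 CPM in dark and 0.557 CPM at 6 h, and the root genes COBL9 and WOX5 had no counts in these 10 libraries. The summed light-harvesting antenna genes, which mark green cotyledon tissue, took 13101 to 36084 CPM in dark and 56866 to 72646 CPM at 6 h. Epidermal markers summed to 205 to 368 CPM in dark and 521 to 791 CPM at 6 h. Most of that sum was PDF1 (AT2G42840), a gene of the outer cell layer, with 148 to 289 CPM in dark and 429 to 660 CPM at 6 h. PDF1 rose under both scalings (log2 fold change 2.03 ± 0.63 per fly RNA, 1.37 ± 0.18 within plant RNA). Of the 3 epidermal markers 1 rose per fly RNA and 2 within plant RNA. Vascular markers (68.9 to 97.3 CPM and 73.6 to 101 CPM) overlapped between the groups, and guard cell markers did just barely (60.1 to 82.4 CPM and 43.8 to 60.3 CPM). The 7 shoot meristem markers summed to 9.62 to 17.0 CPM in dark and 4.82 to 12.5 CPM at 6 h, and the 16 seed markers to 10.2 to 22.3 CPM and 3.71 to 6.27 CPM. Of the 5 meristem markers tested 1 rose and 0 fell per fly RNA, and 1 rose and 2 fell within plant RNA. Whether shifts in cell makeup had a part in the gene results was not tested.

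The gene lists hold 892 genes in 45 lists, of which 810 passed the filter on low counts and were tested, and 46 also occur in merged entries of genes that could not be told apart. Of the 810 tested genes 359 rose and 58 fell under both scalings, and 119 fell and 85 rose within plant RNA alone. Among all 19281 genes 21.4% rose and 4.30% fell under both, and 26.5% fell and 9.16% rose within plant RNA alone. The lists were chosen with earlier results of these data known, so a difference from all genes is partly built in. Another 4 rose per fly RNA alone and 185 were called on neither scale. Apart from the cell type markers, in the 17 lists with calls higher and 0 lower per fly RNA, with 375 genes tested, 2 genes were lower at an unadjusted edgeR p under 0.05 and 2 by DESeq2. In the 7 such lists within plant RNA, markers again left aside, with 169 genes, these counts were 0 and 1. These lists were picked for 0 lower in the same fits, so their low counts follow from that choice and are no separate evidence. Over all 19281 genes 1248 were lower at the unadjusted p per fly RNA and 6345 within plant RNA.

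**Figure D3:**
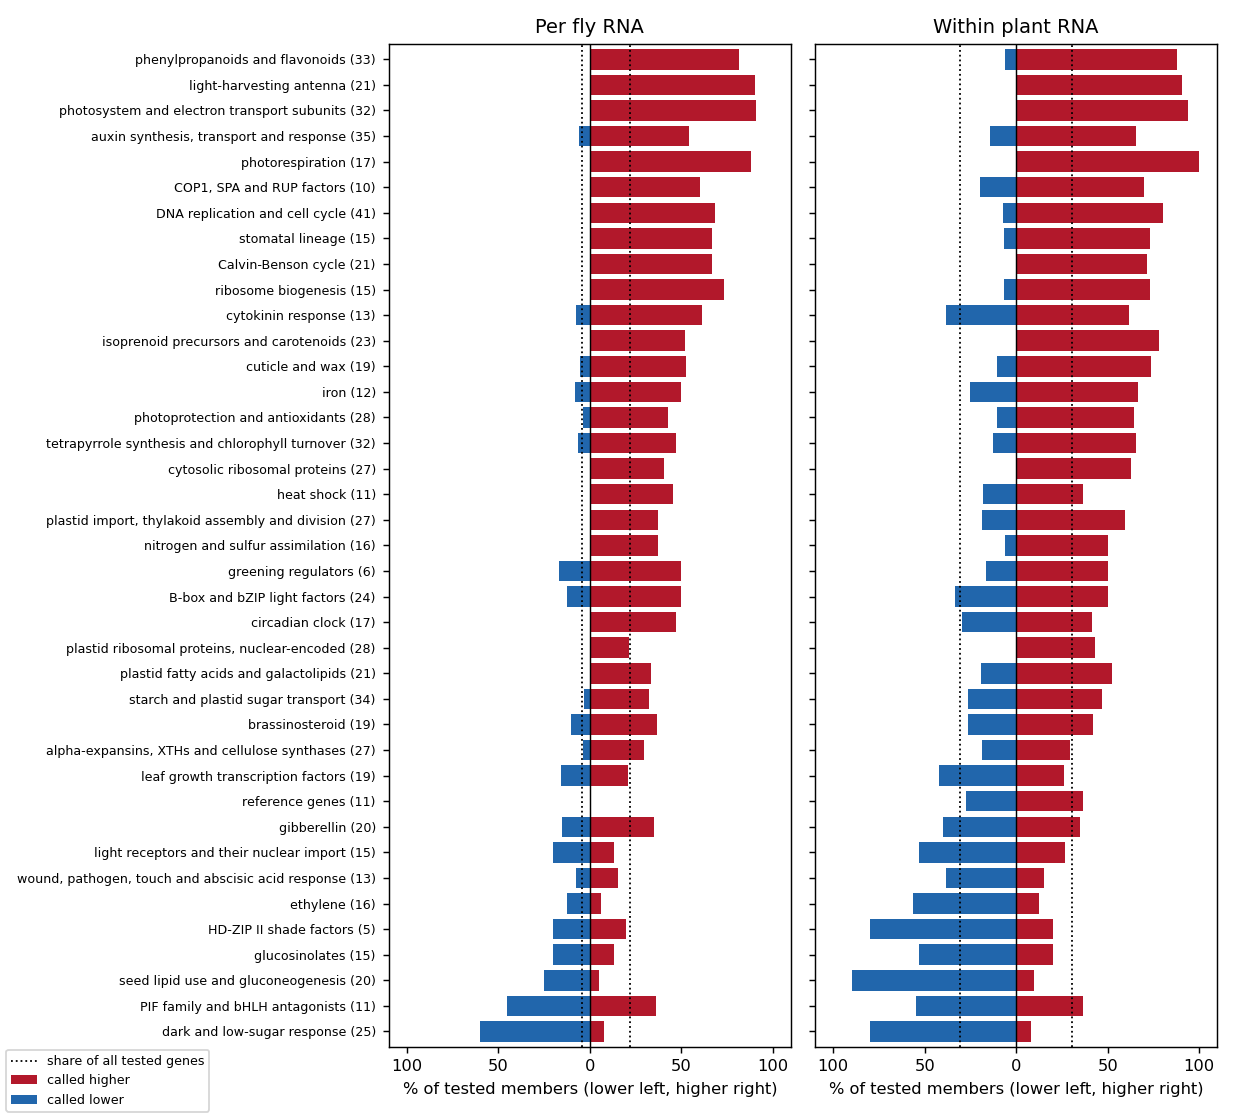
Share of the tested members of each gene list (number tested in brackets) that was called higher (right) or lower (left) after 6 h of light, per fly RNA and within plant RNA, ordered by the median log2 fold change within plant RNA. Dotted lines give the share among all 19281 tested genes: 22.1% higher and 4.37% lower per fly RNA, 30.5% higher and 30.8% lower within plant RNA.

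Light receptors and their import factors moved apart. Of 15 genes 2 rose and 3 fell per fly RNA, and 4 rose and 8 fell within plant RNA (medians 0.29 and -0.36). The share that rose within plant RNA was near the 30.5% of all genes. PHYA (AT1G09570), the phytochrome of dark-grown seedlings, had 379, 429, 407, 295 and 286 CPM in dark replicates 1 to 5 and 33.3, 45.2, 41.6, 39.4 and 38.6 CPM at 6 h. All 5 light libraries lay far below all 5 dark libraries, and PHYA fell by 2.51 ± 0.61 on the log2 scale per fly RNA and by 3.17 ± 0.16 within plant RNA. The shuttle genes FHY1 (AT2G37678) and FHL (AT5G02200), which carry phytochrome A into the nucleus, fell with it, by 3.39 ± 0.65 and 2.06 ± 0.57 per fly RNA. PHYB (AT2G18790), the phytochrome of light-grown plants, rose from 17.1 ± 2.74 to 34.1 ± 5.16 CPM (SD, n = 5). For CRY1 and CRY2, the cryptochromes, the log2 fold changes within plant RNA were -0.07 and -0.21, and neither was called on either scale. UVR8 fell within plant RNA (-0.64) and was not called per fly RNA (0.02).

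In the list of COP1, SPA and RUP factors, which hold back light signalling, 6 of 10 rose and 0 fell per fly RNA, and 7 rose and 2 fell within plant RNA (medians 2.16 and 1.53). RUP2 (AT5G23730), which returns UVR8 to its inactive form, had 0.316, 0.781, 0.840, 3.18 and 3.31 CPM in dark and 37.7, 52.8, 97.7, 78.9 and 54.8 CPM at 6 h, a log2 fold change of 6.24 ± 0.70 per fly RNA and 5.47 ± 0.47 within plant RNA. The groups did not overlap, and among the dark libraries replicates 4 and 5 were the highest. RUP1 (AT5G52250), its close relative, rose by 3.41 ± 0.59 per fly RNA and 2.77 ± 0.15 within plant RNA. Of the ligase subunits SPA1 (AT2G46340, 2.39 ± 0.15 within plant RNA), SPA4 (AT1G53090, 2.32 ± 0.15), SPA3 and COP1 itself rose under both scalings, whereas DDB1A and FUS9 (COP10) fell within plant RNA alone.

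The PIF family and its bHLH antagonists went both ways, 4 of 11 rising and 5 falling per fly RNA, 4 and 6 within plant RNA. Among all genes 30.5% rose within plant RNA, close to the share of this list. UNE10 (AT4G00050, also PIF8) had 0.909, 0.601, 0.747, 0.611 and 0.910 CPM in dark and 27.7, 39.3, 68.5, 48.0 and 36.2 CPM at 6 h, and PIF7 (AT5G61270) rose likewise (5.58 ± 0.64 per fly RNA, 4.91 ± 0.22 within plant RNA). PIF4 (AT2G43010) and PIL6 (PIF5) rose under both scalings as well. PIF3 and PIL2 (PIF6) fell under both, by 2.06 and 2.92 within plant RNA, and PIL5 (PIF1), which restrains chlorophyll synthesis in darkness, was not called (0.72 per fly RNA, 0.08 within plant RNA). The antagonists PIL1 (AT2G46970, -4.53 ± 0.17 within plant RNA), HFR1 (-2.26) and PAR1 (-3.01) fell under both scalings, and PAR2 fell within plant RNA alone. Among the members called, the genes for PIF4, PIF5, PIF7 and PIF8 were thus higher after light while those for PIF3, PIF6 and the antagonists were lower.

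B-box zinc finger genes, which work with HY5 and COP1, moved both ways. Of 24 B-box and bZIP genes 12 rose and 3 fell per fly RNA, and 12 rose and 8 fell within plant RNA. The share that fell within plant RNA was near the 30.8% of all genes. BBX30 (AT4G15248), a short B-box protein, had no counts in dark and 6.95, 1.96, 5.29, 2.88 and 1.93 CPM at 6 h. With 3 counts as the floor over the dark group it was at least 130-fold higher. Its relative BBX31 (AT3G21890) had counts in dark replicate 4 alone (0.204 CPM) and 7.56 to 11.2 CPM at 6 h. STH (AT2G31380, also BBX25) rose from 1.94 to 5.18 CPM in dark to 140 to 160 CPM at 6 h (5.99 ± 0.70 per fly RNA, 5.36 ± 0.25 within plant RNA). In contrast bbx23 (AT4G10240), an HY5 partner, had 163, 175, 149, 166 and 183 CPM in dark, and at 6 h 0.409 and 0.531 CPM in replicates 1 and 2 and no counts in replicates 3 to 5 (-9.54 ± 0.85 per fly RNA, -9.83 ± 0.65 within plant RNA). HY5 (AT5G11260), the bZIP activator of light responses, had 64.1 to 166 CPM in dark and 39.2 to 131 CPM at 6 h, and the groups overlapped (0.18 ± 0.58 per fly RNA, -0.44 ± 0.24 within plant RNA, not called). Its homolog HYH rose under both scalings (3.38 and 2.78).

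Among 17 clock genes 8 rose and 0 fell per fly RNA, and 7 rose and 5 fell within plant RNA. Here too the share that fell within plant RNA was near the 30.8% of all genes. AT5G64170 (LNK1, a light-induced coactivator) rose from 3.06 to 7.33 CPM in dark to 38.3 to 50.7 CPM at 6 h (3.76 ± 0.61 per fly RNA, 3.07 ± 0.22 within plant RNA). ELF4 (AT2G40080), of the evening complex, had 6.62 to 9.80 CPM in dark and 128, 71.3, 111, 27.0 and 33.6 CPM at 6 h, where replicates 1 to 3 were higher than replicates 4 and 5. The pseudo-response regulator PRR5 (AT5G24470) showed the same order, with 33.7, 26.5 and 31.5 CPM in replicates 1 to 3 at 6 h against 11.6 and 16.3 CPM in replicates 4 and 5, and in dark 7.32, 8.42 and 9.01 CPM against 3.10 and 4.35 CPM. The morning gene CCA1 (AT2G46830) had 10.6 to 25.6 CPM in dark and 4.50 to 16.2 CPM at 6 h, with overlap, and fell within plant RNA alone (-0.82 ± 0.19). LHY, its partner, did the same (-0.93). The sources used here do not give the hour of harvest, and its part in these values was not tested.

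Of 6 regulators of greening 3 rose and 1 fell on each scale. CGA1 (AT4G26150), a GATA factor that promotes chloroplast development, had 0.593 to 1.2 CPM in dark and 30.0, 33.8, 38.8, 68.1 and 52.5 CPM at 6 h (6.32 ± 0.68 per fly RNA, 5.68 ± 0.22 within plant RNA). GLK2 (AT5G44190), which drives photosynthesis genes, rose less, by 1.94 ± 0.59 per fly RNA and 1.28 ± 0.14 within plant RNA. GUN1 (AT2G31400), of signalling from plastid to nucleus, rose under both (0.88 ± 0.17 within plant RNA), although its groups overlapped. GATA2 (AT2G45050), a light-response factor, fell by 1.82 ± 0.56 per fly RNA and by 2.47 ± 0.12 within plant RNA. The other two, GPRI1 (GLK1, 0.11 within plant RNA) and GNC (0.28), were not called.

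The light-harvesting antenna had 19 of 21 genes higher and 0 lower on each scale, with a median log2 fold change of 3.23 per fly RNA and 2.59 within plant RNA. CAB2 (AT1G29920, also LHCB1.1), for a main antenna protein of photosystem II, had 3.04, 19.4, 54.6, 6.44 and 40.1 CPM in dark and 2755, 3315, 4176, 5318 and 3835 CPM at 6 h. As a ratio of highest to lowest the dark libraries were spread more widely than the light libraries. The log2 fold change was 8.65 ± 0.89 per fly RNA and 7.89 ± 0.76 within plant RNA. LHB1B1 (AT2G34430, also LHCB1.4) followed with 2.81 to 111 CPM in dark and 830 to 1607 CPM at 6 h, and LHCB2.2 (AT2G05070) with 22.1 to 123 CPM and 1627 to 2579 CPM. CAB1 (also LHCB1.3; 1.00 per fly RNA, 0.32 within plant RNA) and LHCB4.2 (1.11, 0.43) were the members not called. CAB2 and CAB3 also occur in merged entries of near-identical genes, so their levels are uncertain.

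Of 32 genes for subunits of the photosystems and the electron transport chain 29 rose per fly RNA and 30 within plant RNA, with 0 lower and medians of 2.68 and 2.05. PSBO2 (AT3G50820), of the oxygen-evolving complex, had 37.2, 117, 114, 125 and 138 CPM in dark and 923, 855, 1163, 1110 and 1030 CPM at 6 h, a log2 fold change of 3.97 ± 0.68 per fly RNA and 3.37 ± 0.30 within plant RNA. PSAH2 (AT1G52230) and PSAK (AT1G30380), of photosystem I, and FED A (AT1G60950), a leaf ferredoxin, rose by 3.05 ± 0.30, 2.62 ± 0.28 and 2.71 ± 0.30 within plant RNA. In all 4 the lowest dark library was replicate 1. FED A went from 0.150% ± 0.0680 to 0.740% ± 0.120 of the nuclear counts (SD, n = 5), and of all genes RBCS3B gained the largest share, from 0.604% ± 0.183 to 1.55% ± 0.383.

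The Calvin-Benson cycle, which fixes carbon dioxide, had 14 of 21 genes higher per fly RNA, 15 within plant RNA and 0 lower (medians 1.91 and 1.29). The Rubisco small subunit gene RBCS1B (AT5G38430) had 58.1, 196, 96.9, 287 and 288 CPM in dark and 5547, 5321, 5166, 5282 and 4471 CPM at 6 h (5.61 ± 0.76 per fly RNA, 5.03 ± 0.46 within plant RNA). RBCS1A (AT1G67090), of the same family, already had 9186 to 16216 CPM in dark and reached 16791 to 28679 CPM, and it rose within plant RNA alone (0.72 ± 0.25; adjusted p = 0.0353, edgeR), a call lost without replicate 3, 4 or 5. Rubisco activase RCA (AT2G39730), the aldolase FBA1 (AT2G21330) and CP12-2 (AT3G62410), a small regulator of the cycle, rose by 3.03 ± 0.25, 3.34 ± 0.25 and 5.27 ± 0.55 within plant RNA and under both scalings. RBCS1B, RBCS2B, RBCS3B and CP12-2 also occur in merged entries.

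Photorespiration, which recovers carbon from the oxygenase reaction of Rubisco, rose in 15 of 17 genes per fly RNA and in 17 of 17 within plant RNA (medians 2.18 and 1.54). The glycine decarboxylase gene GLDP1 (AT4G33010) had 42.4, 63.8, 105, 170 and 176 CPM in dark and 441, 776, 1004, 1286 and 1215 CPM at 6 h, and replicates 1 and 2 were the lowest in both groups. Its log2 fold change was 3.82 ± 0.68 per fly RNA and 3.19 ± 0.19 within plant RNA. The serine hydroxymethyltransferase SHM1 (AT4G37930) and the glycolate oxidase GOX1 (AT3G14420) rose by 2.61 ± 0.30 and 2.48 ± 0.24 within plant RNA.

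In tetrapyrrole synthesis and chlorophyll turnover 15 of 32 genes rose and 2 fell per fly RNA, and 21 rose and 4 fell within plant RNA (medians 1.38 and 0.77). The protochlorophyllide reductases parted. PORA had 815, 1191, 1828, 1987 and 2411 CPM in dark and 2.93, 14.3, 5.05, 9.01 and 10.2 CPM at 6 h, and PORB (AT4G27440) 1529, 1981, 2361, 2807 and 2767 CPM in dark and 287, 294, 264, 300 and 360 CPM at 6 h. POR C (AT1G03630), the form of light-grown plants, had 12.8, 32.7, 34.8, 59.5 and 61.9 CPM in dark and 163, 135, 105, 156 and 165 CPM at 6 h. In these CPM values the groups did not overlap for any of the 3 genes, whereas per fly RNA those of PORB and POR C did. The fits gave PORA lower by 7.11 ± 0.79, PORB lower by 2.25 ± 0.66 and POR C higher by 2.59 ± 0.64 on the log2 scale per fly RNA. The PORB call per fly RNA was lost without replicate 4 or 5, and within plant RNA it fell by 2.90 ± 0.20. GUN5 (AT5G13630) and GUN4 (AT3G59400), for the magnesium chelatase step, and PCB2 (AT5G18660), for a late reductase, rose by 2.70 ± 0.26, 2.24 ± 0.24 and 2.29 ± 0.37 within plant RNA. HEMA1, for the first committed step, rose (1.80) while HEMA2 of the same family fell (-0.85) within plant RNA.

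Carotenoid and precursor genes rose in 12 of 23 cases per fly RNA and in 18 within plant RNA, with 0 lower. Phytoene synthase PSY (AT5G17230), the entry to carotenoids, had 50.6 to 146 CPM in dark and 309 to 402 CPM at 6 h (2.57 ± 0.64 per fly RNA, 1.96 ± 0.27 within plant RNA), and CYP97A3 (AT1G31800), of lutein synthesis, rose by 3.01 ± 0.24 within plant RNA. Of 28 genes of photoprotection and antioxidants 12 rose and 1 fell per fly RNA, and 18 rose and 3 fell within plant RNA. ELIP1 had 5.10, 13.6, 25.6, 41.1 and 110 CPM in dark and 4339, 3746, 5015, 5403 and 3728 CPM at 6 h, a log2 fold change of 8.06 ± 0.86 per fly RNA and 7.52 ± 0.74 within plant RNA. The ratio of highest to lowest was again larger among the dark libraries. VTE1 (AT4G32770), tocopherol cyclase, rose by 3.26 ± 0.24 within plant RNA, and the catalase gene CAT3 fell under both scalings (-2.25 within plant RNA).

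Of 28 nuclear genes for plastid ribosomal proteins 6 were higher per fly RNA, which is 21.4% and near the 22.1% of all genes, and 12 within plant RNA, with 0 lower on either scale. RPL27 (AT5G40950) rose by 1.9 ± 0.64 per fly RNA and 1.27 ± 0.24 within plant RNA. For plastid import, thylakoid assembly and division 10 of 27 rose and 0 fell per fly RNA, and 16 rose and 5 fell within plant RNA. The import channel gene Tic20-I (AT1G04940, 2.72 ± 0.34 within plant RNA), the division gene FTSZ1-1 (AT5G55280, 2.16 ± 0.26) and the state-transition kinase STN7 (AT1G68830, 1.84 ± 0.12) rose under both scalings, whereas the receptor genes TOC159 (-1.46), TOC33 (-0.74) and TOC34 (-0.72) fell within plant RNA alone.

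Of 21 plastid lipid genes 7 rose and 0 fell per fly RNA, and 11 rose and 4 fell within plant RNA. The desaturases FAD8 (AT5G05580) and FAD5 (AT3G15850) and the acyl carrier protein ACP4 (AT4G25050) rose by 3.33 ± 0.25, 3.21 ± 0.24 and 2.82 ± 0.31 within plant RNA. Starch and plastid sugar transport had 11 of 34 higher and 1 lower per fly RNA, and 16 higher and 9 lower within plant RNA. The share lower within plant RNA was a little below the 30.8% of all genes. CT-BMY (AT4G17090, also BAM3), the beta-amylase that breaks down leaf starch, stood out with 0.751, 0.781, 1.07, 0.489 and 0.745 CPM in dark and 71.3, 44.6, 60.6, 67.7 and 42.2 CPM at 6 h (6.87 ± 0.71 per fly RNA, 6.21 ± 0.23 within plant RNA). BAM4, another member of the beta-amylase family, fell under both scalings (-2.42 within plant RNA).

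Phenylpropanoid and flavonoid genes were the list with the highest median, 3.46 per fly RNA and 2.74 within plant RNA (also 2.74 with DFR at its lower bound). Of 33 genes 27 rose and 0 fell per fly RNA, and 29 rose and 2 fell within plant RNA. TT4, chalcone synthase, had 5.69, 19.6, 36.3, 189 and 141 CPM in dark and 374, 391, 842, 762 and 659 CPM at 6 h. Dark replicates 4 and 5 were already the highest, and the log2 fold change was 4.34 ± 0.72 per fly RNA and 3.80 ± 0.64 within plant RNA. Later steps started from nothing or nearly so. DFR, with its G-box just before the annotated start in the sequence above, had no counts in dark and 7.56, 20.9, 21.4, 23.8 and 20.5 CPM at 6 h. By the floor of 3 counts over the dark group it was at least 727-fold higher.

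UF3GT had 1 count each in dark replicates 2 and 4 and 5.25, 10.6, 14.7, 13.6 and 13.4 CPM at 6 h, a pooled ratio of 656 (95% interval 181 to 5424, counting error only). LDOX (AT4G22880), the step after DFR, had 0.158 and 0.166 CPM in dark replicates 1 and 5, none in the others, and 14 to 36.3 CPM at 6 h. The acyltransferase gene scpl10 (AT2G23000) had counts in dark replicate 2 alone (0.301 CPM) and 23.8 to 49.0 CPM at 6 h. The regulators MYB11, MYB90 (PAP2), TT8, PAP1, MYB12 and MYB111 rose under both scalings, TT8 by 8.28 and MYB111 by 2.09 within plant RNA. The members that fell within plant RNA were 4CL5 (-1.73) and 4CL2 (-0.92), coumarate ligases of general phenylpropanoid synthesis, while 4CL3 of the flavonoid branch rose by 5.03.

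**Figure D4:**
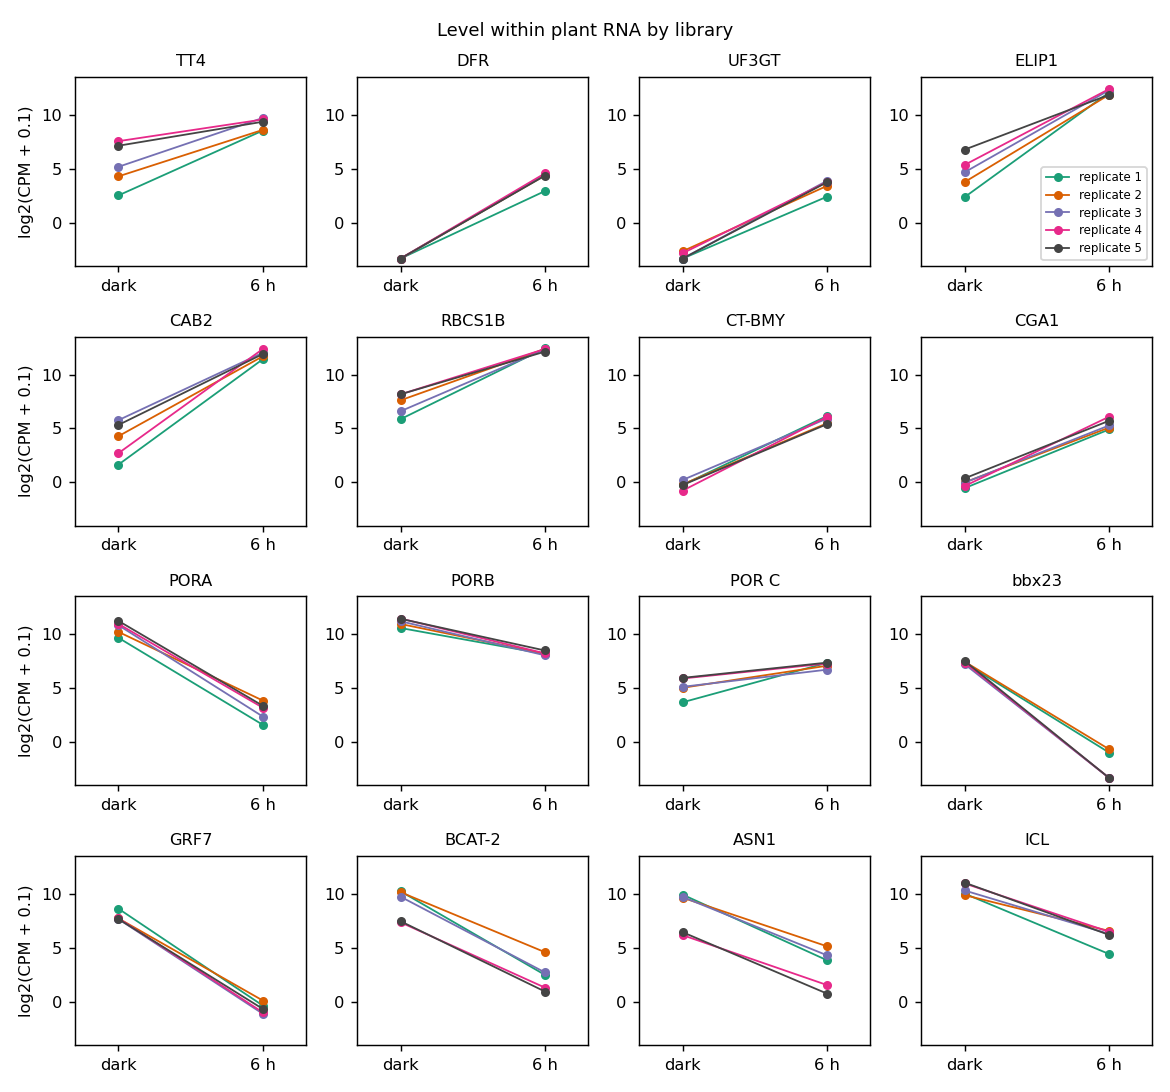
Level of 16 genes in each library as log2(CPM + 0.1) within plant RNA, with lines joining dark and 6 h libraries of the same replicate number. In each gene all 5 light libraries lie on one side of all 5 dark libraries, for example CAB2 from 3.04 to 54.6 CPM in dark and from 2755 to 5318 CPM at 6 h. The same holds for 8022 of all 19281 tested genes within plant RNA.

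Genes of the response to darkness and low sugar had the lowest median of the lists other than cell type markers, -1.70 per fly RNA and -2.38 within plant RNA. Of 25 genes 2 rose and 15 fell per fly RNA, and 2 rose and 20 fell within plant RNA. ASN1 (AT3G47340), the asparagine synthetase of starved tissue, had 979, 803, 844, 72.3 and 87.4 CPM in dark and 14.3, 35.2, 19.7, 2.83 and 1.59 CPM at 6 h. Replicates 1 to 3 were several-fold above replicates 4 and 5 in both groups, and the log2 fold change in pairs was -4.66 ± 0.68 per fly RNA and -5.29 ± 0.30 within plant RNA. BCAT-2 had 1214, 1144, 856, 165 and 177 CPM in dark and 5.52, 24.1, 6.49, 2.38 and 1.83 CPM at 6 h, and SEN1 (AT4G35770), a senescence and dark-induced gene, 1913, 2186, 2019, 930 and 639 CPM in dark and 27.9, 62.9, 18.5, 5.21 and 4.82 CPM at 6 h. Both fell in all 5 pairs with the same split of replicates, with log2 fold changes within plant RNA of -6.61 ± 0.38 for BCAT-2 and -6.5 ± 0.41 for SEN1.

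MCCA (AT1G03090, leucine breakdown), IVD (isovalerate breakdown) and the glutamate dehydrogenases GDH1 and GDH2 fell under both scalings, with log2 fold changes of -4.79, -3.99, -3.95 and -3.70 within plant RNA. The summed CPM of the list was 8302, 7900, 7292, 2669 and 2306 in dark replicates 1 to 5 and 990, 973, 862, 547 and 471 at 6 h. The labels give no difference between replicates 1 to 3 and replicates 4 and 5.

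Seed lipid use and gluconeogenesis moved in the same direction within plant RNA, with 18 of 20 lower and 2 higher (median -1.34), and 5 fell and 1 rose per fly RNA (median -0.71). Isocitrate lyase ICL (AT3G21720), of the glyoxylate cycle, had 1040, 946, 1275, 2003 and 2108 CPM in dark and 21.4, 94.6, 77.9, 89.7 and 73.4 CPM at 6 h (-3.87 ± 0.69 per fly RNA, -4.45 ± 0.36 within plant RNA). PCK1 (AT4G37870), the first step from oxaloacetate to sugar, went from 681 to 1033 CPM in dark to 26.2 to 53.5 CPM at 6 h, and malate synthase MLS (AT5G03860) fell by 2.63 ± 0.21 within plant RNA. The list's summed level was 3473 to 4819 CPM in dark and 1089 to 1338 CPM at 6 h. In dark, replicates 4 and 5 had the highest sums (4819 and 4582 CPM, against 3473 to 4085 CPM in replicates 1 to 3), the opposite order to the low-sugar genes. FBP, the cytosolic fructose bisphosphatase of sucrose synthesis, rose under both scalings (1.22 within plant RNA).

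Nitrogen and sulfur assimilation had 6 of 16 genes higher and 0 lower per fly RNA, and 8 higher and 1 lower within plant RNA. ASN2 (AT5G65010), the second asparagine synthetase gene, went from 5.18 to 18.8 CPM in dark to 85.8 to 145 CPM at 6 h (4.07 ± 0.65 per fly RNA, 3.45 ± 0.32 within plant RNA). The sulfate-reducing enzyme APR2 (AT1G62180, 2.68 ± 0.20) and nitrite reductase NIR1 (AT2G15620, 1.87 ± 0.17) rose under both scalings.

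Cell wall genes were mixed, with 8 of 27 higher on each scale and 1 lower per fly RNA and 5 within plant RNA, so the share that rose was near that of all genes. EXPA1 (AT1G69530), an expansin that loosens walls, had 14, 12.6, 11.1, 9.29 and 12.8 CPM in dark and 548, 488, 300, 242 and 225 CPM at 6 h (5.46 ± 0.71 per fly RNA, 4.83 ± 0.23 within plant RNA). XTH15 (AT4G14130), a xyloglucan-modifying enzyme, had 3857, 2918, 2977, 1961 and 1173 CPM in dark and 55.9, 75.2, 35.9, 31.7 and 24.1 CPM at 6 h (-5.20 ± 0.72 per fly RNA, -5.86 ± 0.26 within plant RNA). TCH4 (AT5G57560), of the same enzyme family, rose by 2.97 ± 0.22 within plant RNA. The cellulose synthase genes CESA1, CEV1 (CESA3) and CESA6 had log2 fold changes of 0.20, 0.20 and 0.16 within plant RNA and were not called.

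Of 35 auxin genes 19 rose and 2 fell per fly RNA, and 23 rose and 5 fell within plant RNA (medians 2.62 and 1.95). Most of the largest values were of SAUR genes, small auxin-induced proteins of cell expansion. AT4G38840 (SAUR14) had 1.03, 7.51, 4.90, 5.30 and 5.55 CPM in dark and 678, 342, 384, 277 and 277 CPM at 6 h (6.87 ± 0.75 per fly RNA, 6.33 ± 0.60 within plant RNA), and AT4G38860 (SAUR16) and AT2G21210 (SAUR6) rose by 6.20 ± 0.53 and 5.44 ± 0.54 within plant RNA. SAUR19 (-1.61 within plant RNA) and SAUR22 (-0.22) were not called. IAA29, a shade-responsive auxin repressor, and WES1 (GH3.5), which conjugates auxin, fell under both scalings (-2.39 and -2.08 within plant RNA). The auxin synthesis gene YUC8 fell within plant RNA alone (-1.17) while YUC2 rose under both (2.36).

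Shade-responsive HD-ZIP II factors had 1 of 5 higher on each scale, and 1 lower per fly RNA and 4 within plant RNA. HB-2 (AT4G16780, also ATHB2) had 16 to 32.1 CPM in dark and 1.16 to 3.55 CPM at 6 h (-2.73 ± 0.57 per fly RNA, -3.32 ± 0.21 within plant RNA), and HAT1 (AT4G17460) rose (1.00 ± 0.28 within plant RNA). Of 20 gibberellin genes 7 rose on each scale, and 3 fell per fly RNA and 8 within plant RNA. Within plant RNA the share that rose was close to the 30.5% of all genes. GA3OX2 (AT1G80340) and GA3OX1, which make active gibberellin, rose by 5.31 ± 0.62 and 2.51 within plant RNA. GA3OX2 had 9 counts over the dark group and 295 at 6 h, so the size of its change is uncertain. The inactivating 2-oxidases moved both ways, GA2OX8 (AT4G21200) from at most 0.791 CPM in dark to 7.74 to 16.1 CPM at 6 h and GA2OX6 (AT1G02400) from 48.2 to 129 CPM to 1.83 to 8.86 CPM.

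Brassinosteroid genes had 7 of 19 higher and 2 lower per fly RNA, and 8 and 5 within plant RNA. Their share lower within plant RNA was a little below the 30.8% of all genes. The bHLH genes BEE1 (AT1G18400), BEE3 (AT1G73830) and BEE2 (AT4G36540) rose by 3.23 ± 0.26, 3.17 ± 0.16 and 1.96 ± 0.27 within plant RNA, and the synthesis gene CPD fell (-2.54). Of 16 ethylene genes 1 rose and 2 fell per fly RNA, and 2 rose and 9 fell within plant RNA. HLS1 (AT4G37580), which shapes the apical hook, had 34.2 to 79.1 CPM in dark and 1.97 to 5.96 CPM at 6 h (-3.01 ± 0.58 per fly RNA, -3.61 ± 0.27 within plant RNA). EIN3 (-1.21) and EIN2 (-1.81), of ethylene signalling, fell within plant RNA alone.

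In the cytokinin list 8 of 13 rose on each scale, and 1 fell per fly RNA and 5 within plant RNA. RR16 (AT2G40670, also ARR16), a response regulator, had 1.3, 4.03, 2.66, 2.77 and 4.3 CPM in dark and 90.3, 49.6, 42.7, 53.1 and 39.6 CPM at 6 h (4.78 ± 0.65 per fly RNA, 4.18 ± 0.40 within plant RNA). ARR6 (AT5G62920, 4.03 ± 0.30) and ARR15 (AT1G74890, 2.50 ± 0.27) rose with it, and CKX5 (AT1G75450), which breaks cytokinin down, fell from 19.2 to 24.0 CPM in dark to 0.613 to 1.01 CPM at 6 h (-4.83 ± 0.17 within plant RNA).

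DNA replication and cell cycle genes rose in 28 of 41 cases and fell in 0 per fly RNA, and 33 rose and 3 fell within plant RNA (medians 1.99 and 1.34). PCNA1 (AT1G07370), the sliding clamp of replication, had 1.5, 2.22, 5.37, 6.69 and 5.83 CPM in dark and 13.2, 12, 27.7, 30.9 and 30.9 CPM at 6 h. Replicates 1 and 2 were below replicates 3 to 5 in both groups, and the paired log2 fold change was 3.13 ± 0.58 per fly RNA and 2.49 ± 0.16 within plant RNA. RNR2A (AT3G23580), for ribonucleotide reductase, and the helicase subunit genes PRL (AT4G02060, also MCM7) and MCM6 (AT5G44635) rose by 2.32 ± 0.17, 1.85 ± 0.16 and 1.83 ± 0.22 within plant RNA. The mitotic cyclin CYCB1;1 was not called (1.14 per fly RNA, 0.49 within plant RNA), and CDC2, SIM and CYCD2;1 fell within plant RNA alone.

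Among leaf growth factors 4 of 19 rose and 3 fell per fly RNA, and 5 rose and 8 fell within plant RNA. The shares that rose were near the 22.1% and 30.5% of all genes. GRF7 (AT5G53660), a growth-regulating factor, had 396, 212, 204, 213 and 203 CPM in dark and 0.681, 0.980, 0.361, 0.405 and 0.530 CPM at 6 h (-8.04 ± 0.77 per fly RNA, -8.64 ± 0.28 within plant RNA). GRF8 fell as well (-3.31 within plant RNA) while GRF4 rose (1.08), and TCP10 (AT2G31070), of the CIN class, rose by 2.34 ± 0.15. In the stomatal list 10 of 15 rose and 0 fell per fly RNA, and 11 rose and 1 fell within plant RNA. EPF2 (AT1G34245), a secreted inhibitor of stomatal entry, went from 3.76 to 7.61 CPM in dark to 28.6 to 55.9 CPM at 6 h (3.41 ± 0.60 per fly RNA, 2.78 ± 0.32 within plant RNA), and BASL (AT5G60880), a polarity protein of the lineage, rose by 2.29 ± 0.18. FMA, of the final guard cell division, was not called (0.32 within plant RNA).

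Ribosome biogenesis had 11 of 15 genes higher on each scale, and 0 lower per fly RNA and 1 within plant RNA. NOP56 (AT1G56110), a nucleolar protein, had 10.4, 8.78, 15.8, 25.6 and 19.0 CPM in dark and 34.3, 42.7, 56.4, 68.3 and 67.5 CPM at 6 h (2.45 ± 0.59 per fly RNA, 1.81 ± 0.15 within plant RNA). Cytosolic ribosomal proteins rose in 11 of 27 cases per fly RNA and in 17 within plant RNA, with 0 lower, and RPS6 (AT4G31700) went from 79.8 to 201 CPM in dark to 325 to 506 CPM at 6 h. Among the 5 genes with the largest loss of share were AT3G41768, a ribosomal RNA gene in RefSeq, and AT3G06365, a non-coding RNA gene listed next to it. AT3G06365 took 53371, 68568, 11510, 4424 and 4734 CPM in dark and 40227, 27814, 16988, 1710 and 6402 CPM at 6 h and was not called, with replicates 1 and 2 the highest in both groups. AT3G41768 was not called either.

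Iron genes had 6 of 12 higher and 1 lower per fly RNA, and 8 and 3 within plant RNA, with the ferritin gene FER3 (AT3G56090) going from 21.6 to 58.7 CPM in dark to 160 to 213 CPM at 6 h. Cuticle and wax genes had 10 of 19 higher and 1 lower per fly RNA, and 14 and 2 within plant RNA. LTP2 (AT2G38530), a lipid transfer protein of the cuticle, had 10851, 6603, 14754, 14144 and 11183 CPM in dark and 351, 484, 747, 776 and 766 CPM at 6 h, and its share of the nuclear counts fell from 1.38% ± 0.459 to 0.0613% ± 0.0224 (SD, n = 5). LP1 (AT2G38540), another lipid transfer protein gene, rose (3.03 ± 0.66 per fly RNA, 2.40 ± 0.21 within plant RNA). Of 15 glucosinolate genes 2 rose and 3 fell per fly RNA, and 3 rose and 8 fell within plant RNA. CYP79B3 (AT2G22330) and MYB51 (AT1G18570), of the tryptophan-derived branch, fell by 3.68 ± 0.26 and 3.17 ± 0.38 within plant RNA, and MYB28 (AT5G61420), which drives the methionine-derived branch, rose by 2.08 ± 0.27.

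Of 11 heat shock genes 5 rose and 0 fell per fly RNA, and 4 rose and 2 fell within plant RNA, with the factor HSFA2 (AT2G26150) at 1.26 to 2.21 CPM in dark and 4.15 to 8.57 CPM at 6 h. For these genes the share that rose within plant RNA was close to the 30.5% of all genes. In the list of wound, pathogen, touch and abscisic acid responses 2 of 13 rose and 1 fell per fly RNA, and 2 rose and 5 fell within plant RNA. The 11 reference genes, often used for normalization, had 0 calls per fly RNA (edgeR; median 0.57; at an unadjusted p under 0.05 3 were higher and 0 lower, and by DESeq2 4 and 0), and within plant RNA 4 rose and 3 fell (median -0.07). ACT2 (AT3G18780), actin, had a log2 fold change of 1.32 ± 0.61 per fly RNA and rose within plant RNA (0.66 ± 0.17), and UBQ10 (AT4G05320), ubiquitin, was not called on either scale (0.57 ± 0.60 and -0.07 ± 0.17).

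The single genes that changed most were ranked per fly RNA among those called under both scalings, with no overlap between groups and a mean of at least 10 in the higher group, here in CPM scaled by fly RNA. Of the 10 with the largest increase 6 carry no gene name in RefSeq, and DFR, scpl10, UF3GT and MSRB6 (AT4G04840), a methionine sulfoxide reductase, are the named ones. MSRB6 had 1.3, 2.34, 1.96, 2.61 and 1.24 CPM in dark and 1229, 779, 785, 691 and 512 CPM at 6 h (9.33 ± 0.84 per fly RNA, 8.71 ± 0.34 within plant RNA). Of the 10 with the largest decrease 4 carry no name. The others are bbx23, GRF7, PORA, FLP1 (AT4G31380), SNRK2.5 (AT5G63650) and CYP96A5 (AT2G21910). FLP1, a small protein related to a flowering promoter, had 236 to 333 CPM in dark and 0.289 to 5.02 CPM at 6 h, and the kinase gene SNRK2.5 had 169 to 599 CPM and 1.3 to 3.59 CPM.

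Within several gene families one member rose while another fell, and these families were picked after their values were seen. ASN1 fell and ASN2 rose, BCAT-2 fell and BCAT-1 rose (2.04 per fly RNA, 1.35 within plant RNA), and LTP2 fell and LP1 rose under both scalings. Among gibberellin 2-oxidases GA2OX6 (-4 ± 0.22 within plant RNA) and GA2OX4 (-2.49) fell while GA2OX8 (5.47 ± 0.44), ATGA2OX1 (4.56 ± 0.61) and GA2OX2 (1.61) rose. ATGA2OX1 had 8 counts over the dark group and 173 at 6 h, so the size of its change is uncertain. In other families one member rose and a relative was not called: CP12-2 and CP12-1 (0.61 per fly RNA, -0.06 within plant RNA), RBCS1B and RBCS2B (0.97, 0.34), CAB2 and CAB1. CP12-2, RBCS1B, RBCS2B and CAB2 also occur in merged entries of genes that could not be told apart, so their levels are uncertain. The differences between members were not tested.

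**Figure D5:**
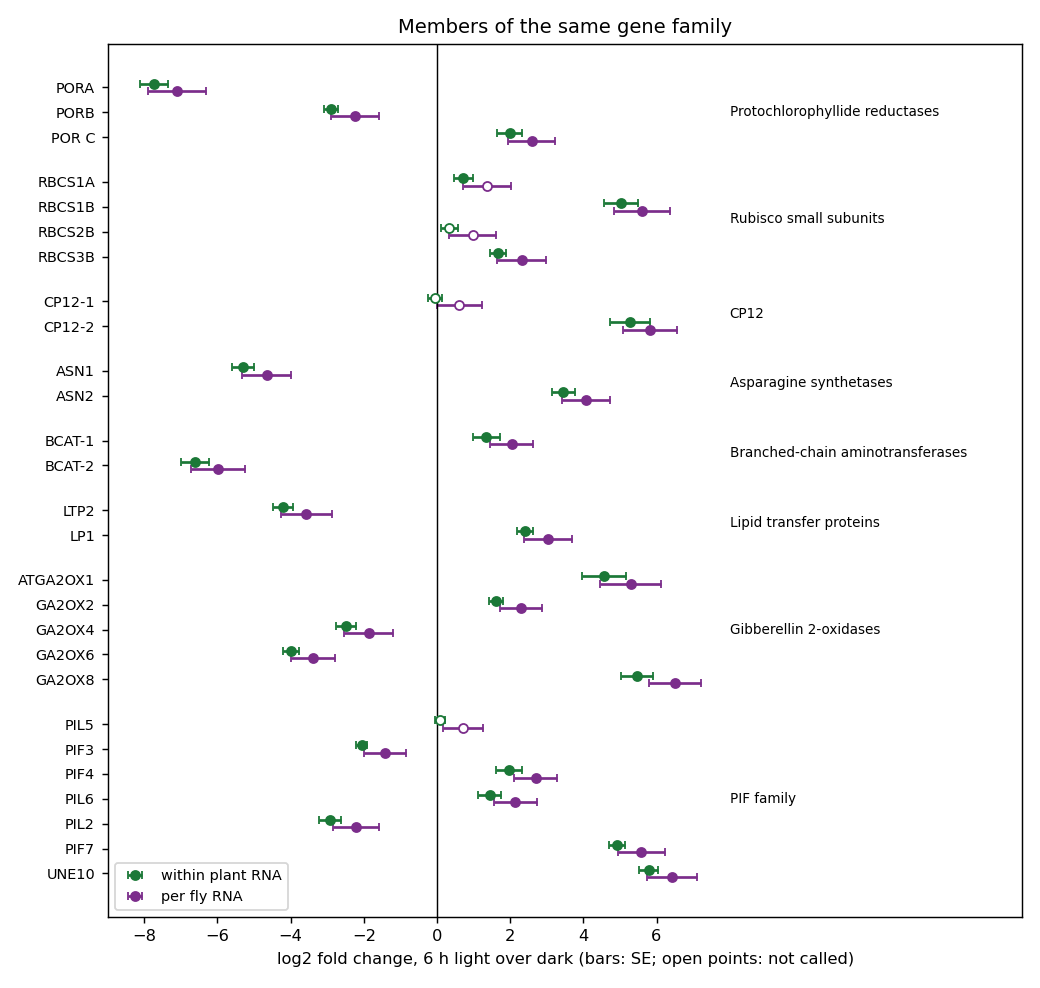
Log2 fold change, 6 h over dark, of members of 8 gene families within plant RNA (green) and per fly RNA (purple), with bars for the SE and open points where a gene was not called. PORA, PORB, ASN1, BCAT-2, LTP2, GA2OX4, GA2OX6, PIF3 and PIL2 lie below 0 on both scales while relatives of each lie above.

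The promoter windows of the changed genes were read with the same motifs, as a description. Of the 484 genes (2.51% of those tested) that rose at least 8-fold within plant RNA, 452 are protein-coding with a window, and 9.29% of these hold a G-box, 16.2% an I-box and 7.96% a site II, against 8.22%, 14.8% and 18.8% of all tested genes. Of the 305 genes (1.58%) that fell at least 8-fold 260 have a window, with 11.9%, 21.9% and 9.62%. By list, the share of windows with a G-box was highest for iron genes (5 of 12, 41.7%) and clock genes (6 of 17, 35.3%), followed by starch genes (9 of 33, 27.3%), flavonoid genes (8 of 33, 24.2%), antenna genes (5 of 21, 23.8%) and photosystem genes (7 of 32, 21.9%). The share with an I-box was highest for dark and low-sugar genes, 10 of 25 windows with BCAT-2 among them, and next for glucosinolate genes, 5 of 15. A site II stood most often in 15 of 27 windows of cytosolic ribosomal protein genes (55.6%) and in 8 of 15 of ribosome biogenesis genes (53.3%). The genes that rose at least 8-fold had a median gene length of 1787 bases against 2427 for all tested protein-coding genes, and those that fell as much had a median of 1918 bases.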

How the data were processed

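Whole-cotyledon RNA with added Drosophila cells was sequenced as stranded paired-end libraries, per the labels' protocols. The authors deposited 1 table of raw counts per gene over all 25 libraries, and the tools listed in the submitters' processing notes are HTSeq, Salmon 1.9.0 and R 4.3.2, with the build TAIR10, without a role for any. The table has 53986 entries: 38410 nuclear, 140 plastid and 126 mitochondrial Arabidopsis entries, 13771 Drosophila entries, and 1539 others that were left out (0.124% to 0.741% of a library's counts). All 37282 nuclear entries with a single gene ID matched RefSeq, which supplied gene names; merged entries of several IDs were tested but not named.

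Counts of the 5 D and 5 6h libraries entered edgeR 4.0.16 under R 4.3.3 (quasi-likelihood test, replicate number as a block, Benjamini-Hochberg adjustment over all 19281 genes). Before this, edgeR's filter on low counts asked for about 10 counts in as many libraries as 1 group holds, and 15 in total. A gene could pass through 1 group alone, as DFR and BBX30 did. Scaling was by summed Drosophila counts or by TMM over Arabidopsis genes. Same-numbered libraries deviated together in all 5 pairs (correlations 0.278 to 0.467 and 0.287 to 0.486 in the 2 scalings), so the numbers were taken as pairs. Replicates 1 and 2 nevertheless correlated more with a library of another number (up to 0.429 and 0.43 by fly scaling, 0.407 and 0.451 by TMM) than with their own. No 2 libraries of a group agreed within sampling noise (chi-square per degree of freedom 17.8 to 352 in 20 comparisons). On simulated data for this comparison 84.0% of genes lowered 2-fold and 86.0% of those raised 2-fold were recovered per fly RNA (19375 genes), 80.0% and 92.0% within plant RNA (19645 genes), and 100% of those changed 4-fold. The changed genes were few, well counted and given 1 fixed variability, whereas in the data 61.3% of genes were called within plant RNA. Recovery of low genes was not simulated. The simulated plant counts followed the fly sums exactly, without the scatter between them in the data. In the data the common coefficient of variation between replicates was 0.516 per fly RNA and 0.243 within plant RNA. All genes called per fly RNA changed at least 2-fold, since that limit left the counts at 4255 and 842. The simulated recovery per fly RNA therefore does not carry over to the data. A library total of 18042043 to 24016282 counts limits precision for low genes, and the intervals and the floor of 3 counts cover counting error only. Promoters were read from TAIR10.1.

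Members and gene lists were chosen with earlier results of these data known. Named were the 10 largest increases and decreases, up to 4 called genes per list with the largest change, the 5 largest gains and losses of nuclear share, and 10 fixed genes. Alternatives were fits without the block, with all 25 libraries, with DESeq2 1.42.0, other scalings, filters and thresholds, and fewer replicates.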

Additional observations from a re-analysis of the deposited data

Results flagged for a closer look

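Of 373 groups of 5 libraries (186 genes in dark and in light, where the group had over 3 counts, and 3 measures of the libraries), 30 held 1 library that stood apart from the other four, where chance alone gives about 5%. No explanation was weighed, and each is given as its level within plant RNA with the range of the others. In 6 h replicate 1 FHY1 had 42.3 CPM against 11.6 to 16.1 CPM and RR16 had 90.3 CPM against 39.6 to 53.1 CPM. In the same library PAR1 had 38.0 CPM against 16.3 to 18.8 CPM and HYH had 542 CPM against 266 to 332 CPM. There too ICL had 21.4 CPM against 73.4 to 94.6 CPM and ACP4 had 4024 CPM against 2124 to 2519 CPM. The same library also showed that AT4G38840 had 678 CPM against 277 to 384 CPM and FAD8 had 268 CPM against 189 to 211 CPM. The same library also showed that PSY had 402 CPM against 309 to 336 CPM and DFR had 7.56 CPM against 20.5 to 23.8 CPM. In 6 h replicate 2 MCCA had 17.3 CPM against 4.24 to 7.76 CPM and BCAT-2 had 24.1 CPM against 1.83 to 6.49 CPM. In the same library HSFA2 had 8.57 CPM against 4.15 to 4.77 CPM and SPA3 had 66.7 CPM against 47.2 to 49.9 CPM. In 6 h replicate 3 RUP1 had 63.6 CPM against 30.4 to 39.6 CPM. In 6 h replicate 4 APR2 had 141 CPM against 74.5 to 85.6 CPM and RBCS3B had 21315 CPM against 13555 to 15379 CPM. In dark replicate 1 MYB51 had 39.5 CPM against 9.5 to 18.1 CPM and GA2OX4 had 4.03 CPM against 1.74 to 2.38 CPM. In the same library RBCS1A had 9186 CPM against 14484 to 16216 CPM and 4CL2 had 6.56 CPM against 4.65 to 5.05 CPM. There too PSBO2 had 37.2 CPM against 114 to 138 CPM and PIL2 had 20.2 CPM against 2.61 to 5.23 CPM. The same library also showed that GA2OX8 had 0.791 CPM against 0 to 0.204 CPM and GRF7 had 396 CPM against 203 to 213 CPM. In dark replicate 2 scpl10 had 0.301 CPM against 0 CPM and EIN2 had 56.7 CPM against 72.5 to 78.9 CPM. In the same library HY5 had 166 CPM against 64.1 to 90.3 CPM. In dark replicate 3 CAB3 had 573 CPM against 60.8 to 197 CPM. In dark replicate 4 BBX31 had 0.204 CPM against 0 CPM.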

How the results depend on the processing

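Per fly RNA the counts of genes depended on the libraries used. Leaving out each replicate gave 2134 to 8251 genes higher and 352 to 876 lower, replicates 1 and 2 alone gave 12406 and 464, and replicates 3 to 5 alone gave 2441 and 2188, so that 96.4% and 52.7% of the calls were higher against 83.5% with all pairs. At an adjusted p under 0.01 the counts were 2594 and 501, and a fit of all 25 libraries with the replicate block gave 1542 lower. Without the replicate block the 10 libraries gave 3925 higher and 916 lower per fly RNA, with 4591 of the 5097 calls kept, and 5237 and 5282 within plant RNA. DESeq2 gave 5966 and 1226 per fly RNA. Within plant RNA the counts were 2209 and 2304 in replicates 1 and 2 alone, 3336 and 3135 at a log2 fold change of at least 1, and 5071 to 5918 and 5160 to 5940 without each replicate. The plastid and mitochondrial differences turned to 0.48 (exact sign-flip p = 0.438) and 0.64 (exact sign-flip p = 0.063) on the log2 scale when counted per fly count, by construction relative to another total, and the mitochondrial share to 0.01 in replicates 3 to 5 alone. HEMA2 turned to 0.89 and CYCD2;1 to 1.21 per fly RNA in replicates 1 and 2 alone. The cause of the other changes was not tested.

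Calls per fly RNA that were lost without 1 of replicates 4 and 5, or without either, and for some genes without another replicate, were those of BAM4, BCAT-1, CAT3, COP1, CPD, FBP, FHL, GA2OX4, GATA2, GLK2, GRF4, GUN1, HAT1, HFR1, IAA29, MLS, PDF1, PHYB, PIF3, PIL6, PORB, RBCS3B, RPL27 and WES1, with edgeR adjusted p of 0.0516 to 0.276. Their direction did not turn. Within plant RNA DDB1A (without replicate 3), FUS9 (without replicate 2, 3, 4 or 5), HAT1 (without replicate 5) and RBCS1A (without replicate 3, 4 or 5) lost the call, with edgeR adjusted p of 0.0506 to 0.124. Over the 186 genes checked under each alternative, 2448 of 2588 values per fly RNA and 2527 of 2588 within plant RNA kept their direction and side of the threshold. Most of these genes were named for their change in the main fit, so this agreement is partly built in. Of all 5097 calls per fly RNA, 59.3%, 60.5%, 98.2%, 48.2% and 48.3% were kept without replicates 1 to 5 in turn. Within plant RNA 85.5% to 94.0% of all 11820 calls were kept.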
